A study of Arabidopsis thaliana with 12 samples.

Results

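The genes described here gained more transcript with abscisic acid (ABA) in cdk8 seedlings than in wild-type seedlings. They were selected on the measured values: 47 of the 33602 genes counted had a cdk8 ABA response of at least 1.5 and a response at least 1 larger than that of wild type. A response is the log2(mean CPM + 1) of 3 ABA libraries minus that of 3 mock libraries of the same genotype, where CPM is counts per 1000000 assigned fragments. The cdk8 limit alone was met by 948 genes and the difference limit alone by 314.

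The series is RNA-seq of whole Arabidopsis thaliana seedlings aged 1 week, with 3 libraries in each of 4 groups. The groups were cdk8 seedlings given 50 µM ABA for 3 h, wild-type (WT) seedlings given the same ABA, cdk8 seedlings given mock, and WT seedlings given mock. The labels name neither the cdk8 allele nor the accession background, and they do not say that the replicates came from separate cultures, so the spread between libraries may be technical. The column headers call the mock libraries 0h. If they were collected before the 3 h of ABA, every response also holds 3 h of elapsed time. The labels do not settle this, and elapsed time and ABA cannot then be told apart.

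ABA is the plant hormone of water deficit and of seed maturation. Bound to its receptors it blocks the PP2C phosphatases, which frees SnRK2 kinases such as SnRK2.6 to phosphorylate bZIP factors that bind ABA response elements in promoters. CDK8 is the kinase of the Mediator kinase module, which links transcription factors to RNA polymerase II, and RAP2.6 is an ERF transcription factor. In seedlings ABA is known for turning on dehydration genes and, in young tissue, a part of the seed programme.

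A larger response can come from a low level in cdk8 after mock, from a high level in cdk8 after ABA, or from both, because the difference of responses equals the cdk8 minus WT difference after ABA (the end difference) less that after mock (the start difference). A gene is called low-start here when the start difference made up at least 2/3 of its larger response, high-end when the end difference did, and mixed between these limits. By this division 16 genes were low-start, 20 were high-end and 11 were mixed. The low-start genes held stress and defence genes such as ABCG40, WRKY40 and FER1, and the clock gene PRR5. The high-end genes held seed genes such as CRA1, CRU3, OLEO2, EM1 and GASA3, and the mixed genes held CBF2 and GolS2.

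**Figure D1:**
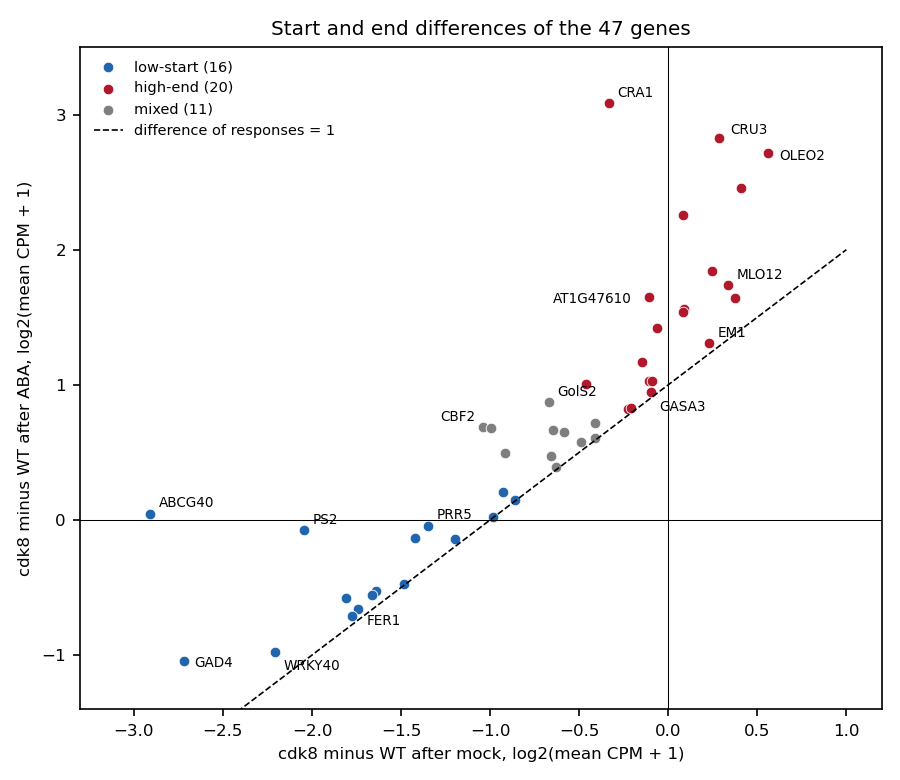
Each point is 1 of the 47 genes; the horizontal axis is the start difference (cdk8 minus WT after mock) and the vertical axis the end difference (cdk8 minus WT after ABA), both in log2(mean CPM + 1), and the dashed line marks a difference of responses of 1. Low-start genes (blue) lie at or left of -0.86 on the horizontal axis, high-end genes (red) lie at or above 0.82 on the vertical axis, and mixed genes (grey) lie left of and above 0, at -1.04 to -0.41 on the horizontal and 0.39 to 0.87 on the vertical axis.

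CDK8 itself (AT5G63610) had 10.8, 5.39 and 9.59 CPM in cdk8 ABA libraries and 27.4, 28.1 and 26.1 CPM in WT ABA libraries. It had 5.24, 9.22 and 6.21 CPM in cdk8 mock libraries and 22.2, 19.6 and 20.5 CPM in WT mock libraries, so every cdk8 library was below every WT library. RAP2.6 and SnRK2.6 were not among the 47, with differences of responses of 0.03 and -0.35. Depth was 24292745 to 27415053 assigned fragments in cdk8 ABA libraries, 17675785 to 19326565 in WT ABA libraries, 18229473 to 20756476 in cdk8 mock libraries and 18748275 to 21188494 in WT mock libraries. Genotype and treatment separated the libraries on the first 2 principal components, while cdk8 ABA replicate 2 and WT ABA replicate 3 stood apart on the fourth (-22.3 and -26.4, against -8.90 to 16.9 in the other 10 libraries). Summed CPM of 4 shoot markers was 8781 to 9543 in cdk8 ABA, 6420 to 7725 in WT ABA, 27015 to 28745 in cdk8 mock and 22680 to 24863 in WT mock libraries. By gene, 2 of these 4 had a difference of responses above 0. Sums for 6 root hair genes were 47.2 to 79.8 CPM in cdk8 ABA and 78.5 to 107 CPM in WT ABA libraries. In mock libraries they were 154 to 196 CPM in cdk8 and 160 to 197 CPM in WT. Sums for 11 suberin genes were 695 to 883 CPM in cdk8 ABA and 723 to 854 CPM in WT ABA libraries. After mock they were 329 to 352 CPM in cdk8 and 359 to 380 CPM in WT. In whole seedlings, fewer cells of a type and less RNA per cell cannot be told apart.

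Promoter stretches are shown for 2 high-end genes whose levels moved together from library to library (CRU3 and AT3G54940), for EM1, a high-end gene with even cdk8 ABA libraries, and for the low-start gene WRKY40. Each line is the 250 bases before the RefSeq gene start (assembly TAIR10.1), written 5′ to 3′ on the gene's strand. Capitals mark every match, on either strand, to the core of the ABA response element (ABRE, ACGTG) or to the RY element (CATGCA), the motif of seed-specific B3 factors.
CRU3, chr4:14087306-14087555, plus strand: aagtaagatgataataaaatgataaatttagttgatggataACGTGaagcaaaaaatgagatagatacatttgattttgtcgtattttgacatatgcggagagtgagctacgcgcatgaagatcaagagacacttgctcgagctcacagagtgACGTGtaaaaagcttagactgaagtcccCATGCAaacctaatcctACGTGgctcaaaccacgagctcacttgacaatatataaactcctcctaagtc
AT3G54940, chr3:20354101-20354350, plus strand: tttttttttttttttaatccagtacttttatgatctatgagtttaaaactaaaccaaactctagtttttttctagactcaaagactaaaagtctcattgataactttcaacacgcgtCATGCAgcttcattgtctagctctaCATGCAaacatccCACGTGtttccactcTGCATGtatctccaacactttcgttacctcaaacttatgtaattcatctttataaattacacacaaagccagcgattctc
EM1, chr3:19214472-19214721, plus strand: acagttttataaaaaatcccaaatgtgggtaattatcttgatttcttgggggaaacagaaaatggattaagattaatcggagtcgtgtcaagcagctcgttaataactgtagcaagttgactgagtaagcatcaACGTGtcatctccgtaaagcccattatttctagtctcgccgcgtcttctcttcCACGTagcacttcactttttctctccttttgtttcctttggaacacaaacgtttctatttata
WRKY40, chr1:30383311-30383560, plus strand: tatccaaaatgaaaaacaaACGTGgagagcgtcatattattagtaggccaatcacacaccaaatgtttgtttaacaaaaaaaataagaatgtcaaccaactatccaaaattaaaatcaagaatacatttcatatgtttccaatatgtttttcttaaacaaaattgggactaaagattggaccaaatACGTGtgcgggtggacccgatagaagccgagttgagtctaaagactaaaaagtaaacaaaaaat
CRU3 had 3 ABRE cores and 1 RY element, and AT3G54940 had 3 RY elements beside an ABRE core read on both strands. EM1 and WRKY40 each had 2 ABRE cores and no RY element in this window.

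Over all members, motif letters differed between the classes. An ABRE core was in 13 of 20 high-end windows (65%), 5 of 16 low-start windows (31.2%) and 4 of 11 mixed windows (36.4%), against 6397 of 27997 windows of all genes (22.8%). The RY element was in 10 of 20 high-end windows (50%), 2 of 16 low-start windows (12.5%) and 1 of 11 mixed windows (9.09%), against 8.76% of all windows. Among the 10 high-end genes with an RY element were CRA1, CRU3, AT3G54940, AT2G28490, AT5G22470, AT3G20395, LEA, MLO12 and GSTU11. The G-box CACGTG, which contains the ABRE core, was in 5 high-end windows (25%), 1 low-start window (6.25%) and 3 mixed windows (27.3%), against 6.45% of all windows.

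Other motifs were closer to the share over all genes or rested on few windows. The W-box core TTGAC, bound by WRKY factors, was in 9 high-end windows (45%), 7 low-start windows (43.8%) and 8 mixed windows (72.7%), against 45% of all windows. The DRE core CCGAC, bound by CBF factors, was in 2 high-end windows (10%), 3 low-start windows (18.8%) and 4 mixed windows (36.4%), against 11.9% of all windows. The evening element AAAATATCT, a clock motif, was in the windows of the low-start genes PRR5 and AT4G16146 and in 2.36% of all windows. The PRR5 window reached into an exon that the counted annotation gives to the same gene, and the other 46 windows did not. These matches are descriptions of letters, made without a test and after the members were chosen.

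**Figure D2:**
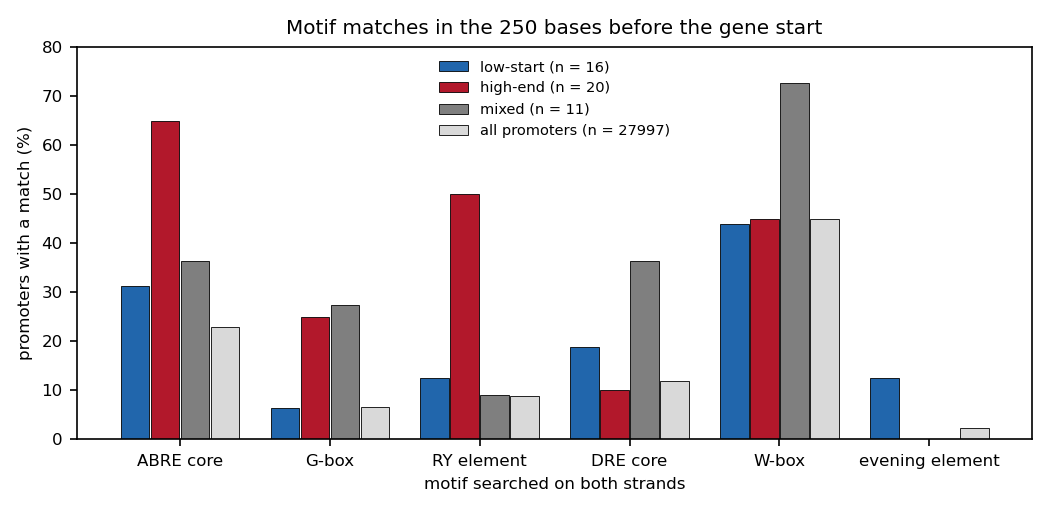
Bars give the share of promoter windows (%) with at least 1 match to each motif on either strand, for the 16 low-start, 20 high-end and 11 mixed genes and for all 27997 windows. The high-end bars stand at 65% for the ABRE core and 50% for the RY element, against 22.8% and 8.76% of all windows.

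In the low-start class every gene had its 3 cdk8 mock libraries below the 3 WT mock libraries, which holds for 19.1% of the 21151 genes tested. The edgeR quasi-likelihood test (Benjamini-Hochberg adjusted over all tested genes) called 16 of 16 lower in cdk8 after mock, against 8% of tested genes. Since the rule used these values, both counts describe the class and nothing is read from them. Start differences ran from -2.91 to -0.86 with a median of -1.65. After ABA, end differences ran from -1.05 to 0.21 with a median of -0.31. In 7 of the 16 all cdk8 ABA libraries were still below all WT ABA libraries (12.6% of tested genes), and in none were they all above. The 7 genes were GAD4, WRKY40, AT1G56300, FER1, SP1L2, MKK9 and AT2G22590. The class limit itself keeps the end difference small beside the start difference, or below 0. ABA levels near to, or short of, the WT level therefore describe the class, and nothing is read from them.

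ABCG40 (AT1G15520, chr1:5331858-5338326, minus strand), an ABC transporter known for ABA import into cells, had the lowest start difference. It had 24.2, 28.9 and 24.2 CPM in cdk8 ABA libraries and 27.4, 15.6 and 31.8 CPM in WT ABA libraries. After mock it had 2.96, 1.81 and 3.66 CPM in cdk8 libraries and 37, 4.63 and 41.2 CPM in WT libraries. The ABA libraries of the genotypes overlapped, the mock libraries did not, and WT mock replicate 2 was far below its 2 companions. Its cdk8 response was 2.81 and its WT response -0.14.

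The same WT mock library was the lowest of its group for PS2 and GAD4. PS2 (AT1G73010), a pyrophosphatase induced by phosphate starvation, had 9.31, 10.04 and 8.96 CPM in cdk8 mock and 63.4, 22.1 and 40.9 CPM in WT mock libraries. Its ABA libraries overlapped, at 21.9, 32 and 46.5 CPM in cdk8 and 40.2, 30.8 and 35.1 CPM in WT. GAD4 (AT2G02010) encodes a glutamate decarboxylase, which makes the stress metabolite GABA. GAD4 had 11.5, 16.1 and 17.1 CPM in cdk8 ABA and 28.1, 24.4 and 43 CPM in WT ABA libraries, against 1.11, 0.823 and 1.3 CPM in cdk8 mock and 12.8, 5.43 and 19.9 CPM in WT mock libraries. Its cdk8 libraries were below the WT libraries in both treatments, and its end difference was -1.05.

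Regulators made up a part of the class. WRKY40 (AT1G80840, chr1:30383691-30385499, plus strand), a WRKY repressor of ABA and defence genes, had 40.02, 45.4 and 50.4 CPM in cdk8 ABA and 123, 65.1 and 81.9 CPM in WT ABA libraries. WRKY40 mock levels were 6.56, 4.28 and 7.03 CPM in cdk8 and 36.8, 25.1 and 31.6 CPM in WT libraries. The groups did not overlap in either treatment, and the cdk8 response of 2.73 left the end level below that of WT. It overlaps AT1G80850 on the other strand, and the counting was not stranded, so a part of its fragments could belong to that gene. Of 7 WRKY and touch genes listed, WRKY40 alone was a member. For the difference of responses 2 (WRKY40 and TCH2) were called higher, against 2.37% of tested genes.

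MKK9 (AT1G73500), a MAP kinase kinase of stress and ethylene signalling, had 46.2, 37.9 and 48.7 CPM in cdk8 ABA and 68.8, 64.6 and 52.5 CPM in WT ABA libraries. MKK9 mock levels were 13.2, 11.4 and 15.3 CPM in cdk8 and 39.7, 39.2 and 38.4 CPM in WT libraries, with the WT replicates close together. PRR5 (AT5G24470), a repressor of morning genes in the circadian clock, had 18.6, 17.7 and 18 CPM in cdk8 mock and 45.2, 59.5 and 38.1 CPM in WT mock libraries. Its ABA libraries overlapped, at 71.3, 57.2 and 75.8 CPM in cdk8 and 80.001, 69.8 and 60.7 CPM in WT. HEC1 (AT5G67060), a bHLH factor of reproductive development, had 1.27, 1.21 and 1.73 CPM in cdk8 mock and 2.82, 4.96 and 2.93 CPM in WT mock libraries.

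FER1 (AT5G01600, chr5:227953-230051, minus strand), the main leaf ferritin that stores iron in plastids, is induced by iron. It had 335, 239 and 338 CPM in cdk8 ABA and 390, 540 and 509 CPM in WT ABA libraries. Its mock levels were 47.6, 77.4 and 59.7 CPM in cdk8 and 220, 214 and 189 CPM in WT libraries. All cdk8 libraries were below all WT libraries of the same treatment, with a cdk8 response of 2.29 and a WT response of 1.2. It overlaps AT5G01595 on the other strand.

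Enzymes and chaperones were also in the class. AT1G56300, a DnaJ-domain protein, had 84, 76.3 and 80.2 CPM in cdk8 ABA and 114, 115 and 119 CPM in WT ABA libraries, against 13.8, 13.6 and 11.3 CPM in cdk8 mock and 38.6, 48 and 40.3 CPM in WT mock libraries. Replicates of this gene were tight and the genotypes did not overlap in either treatment. AT2G21130, a cyclophilin, had 6.08, 4.83 and 5.06 CPM in cdk8 mock and 10.7, 11.6 and 12.2 CPM in WT mock libraries. Its ABA libraries overlapped, at 66.8, 80.1 and 75.5 CPM in cdk8 and 62.3, 66 and 90.9 CPM in WT. GSTU25, a tau-class glutathione transferase, had 186, 155 and 222 CPM in cdk8 ABA and 350, 347 and 133 CPM in WT ABA libraries, where WT replicate 3 was far below its companions.

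The other low-start genes were AT2G22880 (a VQ-motif protein), AT2G22590 (a UDP-glycosyltransferase), SP1L2 (a SPIRAL1-like microtubule protein), AT4G16146 (an ARPP19-like phosphoprotein) and EXLA3 (an expansin-like protein). Their start differences ran from -1.81 in AT2G22590 to -0.86 in EXLA3. AT4G16146 had the second largest cdk8 response of the class, 3.47, with a WT response of 2.41. In 2 of the 16 (ABCG40 and PS2) the WT response was below 0, and in 9 it was at least 1.

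**Figure D3:**
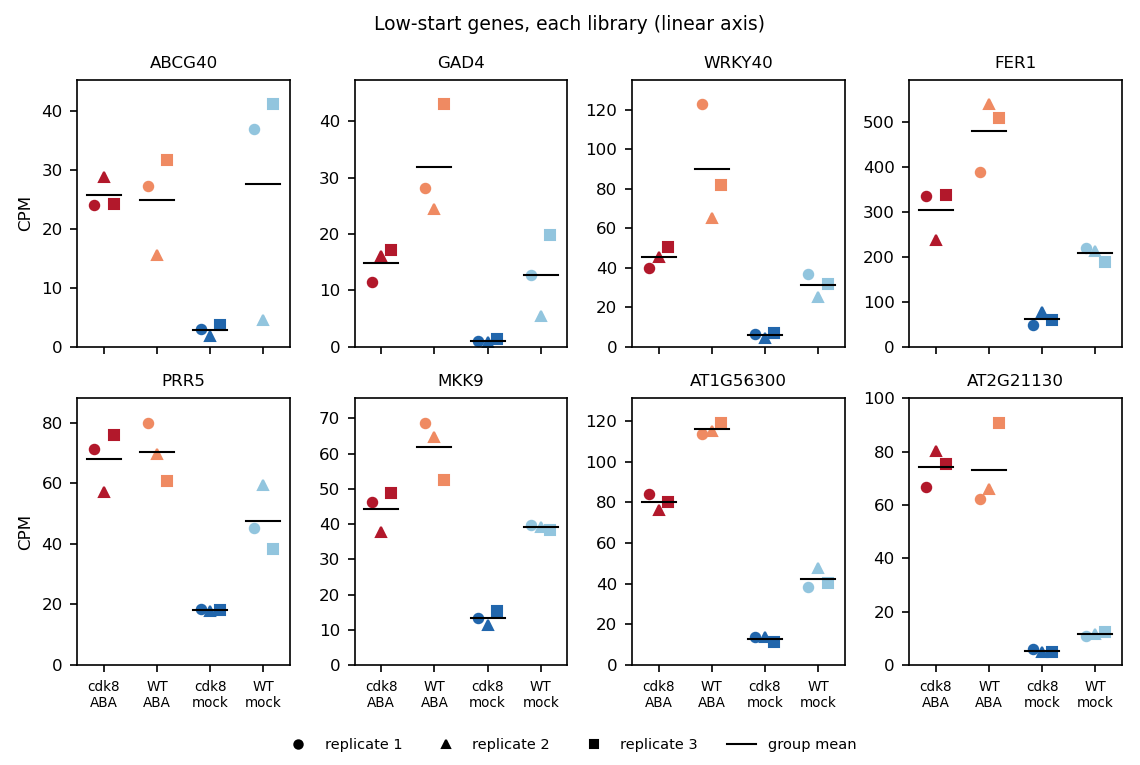
CPM in each library for 8 low-start genes, on linear axes from 0; symbols mark the replicates and horizontal bars the group means (n = 3). In each panel the cdk8 mock libraries lie below the WT mock libraries, while the ABA libraries overlap (ABCG40, PRR5, AT2G21130) or lie lower in cdk8 (GAD4, WRKY40, FER1, MKK9, AT1G56300).

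In the high-end class the start differences ran from -0.46 to 0.56 with a median of 0.01, and 10 were above 0. End differences ran from 0.82 to 3.09 with a median of 1.55. In 18 of 20 genes all cdk8 ABA libraries were above all WT ABA libraries, against 26.6% of tested genes, and the exceptions were CRA1 and AT1G68250. The edgeR test called 18 of 20 higher in cdk8 after ABA (10.6% of tested genes). It called 0 of 20 lower in cdk8 after mock (8% of tested genes), where 1 had an unadjusted p under 0.05 and DESeq2 called 0. The class limit favours a large end and a small start difference, so these counts describe the class and nothing is read from them. The WT response was below 0 in 6 of the 20 and at least 1 in 9.

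The genes fell into those with even cdk8 ABA replicates and those whose level rested on some of them. The highest cdk8 ABA library was over 2 times the lowest in 10 of 20 high-end genes, 2 of 16 low-start genes and 2 of 11 mixed genes. The median of this ratio was 2.12 in the high-end, 1.31 in the low-start and 1.38 in the mixed class.

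GASA3 (AT4G09600), a GAST1-like peptide gene of the seed list, had the largest cdk8 response of all members, 4.66. It had 22.7, 24.7 and 27.9 CPM in cdk8 ABA and 11.4, 14.4 and 11.8 CPM in WT ABA libraries. The groups did not overlap and the replicates were even. After mock it was near 0, with 0, 0.0549 and 0.0482 CPM in cdk8 and 0, 0 and 0.32 CPM in WT libraries.

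EM1 (AT3G51810, chr3:19214748-19215831, plus strand), a LEA protein of the maturing embryo and a textbook ABA target, had 14.7, 10.5 and 14.2 CPM in cdk8 ABA and 6.78, 4.24 and 3.16 CPM in WT ABA libraries. After mock it had 0.37, 0.219 and 0.0482 CPM in cdk8 and 0.0487, 0 and 0.0533 CPM in WT libraries, at or near the level of 3 counts (0.142 to 0.165 CPM in those 6 libraries). Because its mock counts are so few, the scale decides the sign of its difference of responses: it was 1.08 on the log2(mean CPM + 1) scale and -1.08 in the edgeR fit (SE 1.13, adjusted p = 0.626 by the quasi-likelihood test). The end difference does not have this limit and was 1.31.

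E12A11 (AT1G18100), also named MOTHER OF FT AND TFL1, encodes a PEBP protein that acts on ABA control of germination. It had 95.4, 142 and 113 CPM in cdk8 ABA and 59.5, 54.8 and 56 CPM in WT ABA libraries. After mock the genotypes overlapped, at 7.25, 5.65 and 5.73 CPM in cdk8 and 7.21, 5.76 and 7.31 CPM in WT. Its WT response was already 2.9 and its cdk8 response was 4.03. It overlaps AT1G18090 on the other strand.

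MLO12 (AT2G39200), a membrane protein of the MLO family known from powdery mildew susceptibility, also had a high end level. It had 85.5, 106 and 73.7 CPM in cdk8 ABA and 21.1, 26.6 and 29.8 CPM in WT ABA libraries. Its mock levels were 19.8, 21.8 and 25.5 CPM in cdk8 and 18.7, 15.6 and 18.3 CPM in WT libraries, where all cdk8 libraries were above the WT libraries. AT1G47610, a WD40-repeat protein, had 11, 15.6 and 11.4 CPM in cdk8 ABA and 3.14, 4.07 and 2.85 CPM in WT ABA libraries, and under 1 CPM in every mock library. AT4G22610, a lipid-transfer-like protein, had 32.8, 44.3 and 35.9 CPM in cdk8 ABA and 12.6, 14.5 and 21.5 CPM in WT ABA libraries. In all 3 the ABA libraries of the genotypes did not overlap.

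AT1G74458, an uncharacterized protein, and AT3G20395, a RING/U-box protein, had end differences of 0.82 and 1.0 with no overlap between the genotypes after ABA. HVA22B (AT5G62490), of an ABA-induced HVA22 family, had 8.17, 5.32 and 6.63 CPM in cdk8 ABA and 2.38, 3.51 and 2.43 CPM in WT ABA libraries. GSTU11 (AT1G69930) had 11.3, 15.3 and 16.5 CPM in cdk8 ABA and 10.8, 9.0 and 3.1 CPM in WT ABA libraries, where WT replicate 3 was the low one.

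The seed storage genes had the largest end differences and the least even replicates. CRA1 (AT5G44120, chr5:17756264-17758288, minus strand), a cruciferin storage globulin, had 23.7, 0.558 and 15.9 CPM in cdk8 ABA and 0, 1.98 and 0.103 CPM in WT ABA libraries. After mock it had 0.846, 5.54 and 1.4 CPM in cdk8 and 0.536, 0.142 and 9.92 CPM in WT libraries. Replicates 1 and 3 of cdk8 ABA were high, replicate 2 lay below WT ABA replicate 2, and single mock libraries of both genotypes were also raised.

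CRU3 (AT4G28520), another cruciferin, had 16.9, 0.893 and 4.45 CPM in cdk8 ABA and 0, 0.396 and 0.155 CPM in WT ABA libraries. OLEO2 (AT5G40420), an oleosin of seed oil bodies, had 12.1, 0.855 and 6.63 CPM in cdk8 ABA and 0.0542, 0.283 and 0.103 CPM in WT ABA libraries. In both, all cdk8 ABA libraries were above all WT ABA libraries, with replicate 2 the lowest of the 3. AT3G54940, a papain-type protease, had 7.81, 0.855 and 5.06 CPM in cdk8 ABA and 0.0542, 0.283 and 0.155 CPM in WT ABA libraries. AT2G28490, a cupin of the storage globulin superfamily, had 7.08, 0.744 and 7.82 CPM in cdk8 ABA and 0, 0.339 and 0.0517 CPM in WT ABA libraries. Replicate 2 was again under 1 CPM in both.

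Replicate 2 was also the lowest cdk8 ABA library in AT1G47980 (a desiccation-like protein), AT5G22470 (PARP3, a poly ADP-ribose polymerase) and LEA (AT2G21490, a dehydrin), which all had under 5 CPM in every library. AT1G47980 averaged 3.18 ± 1.42 CPM in cdk8 ABA and 0.164 ± 0.115 CPM in WT ABA libraries (SD, n = 3 each). PARP3 averaged 2.33 ± 1.19 CPM in cdk8 ABA and 0.129 ± 0.0891 CPM in WT ABA libraries, and LEA 2.32 ± 1.29 CPM in cdk8 ABA and 0.146 ± 0.085 CPM in WT ABA libraries (SD, n = 3 each). ICL (AT3G21720), isocitrate lyase of seed oil use after germination, had 13.8, 4.72 and 4.28 CPM in cdk8 ABA and 1.63, 1.98 and 1.66 CPM in WT ABA libraries. AT1G68250, an uncharacterized protein, owed its place to 1 library, with 30.7, 3.05 and 2.02 CPM in cdk8 ABA and 3.41, 3.85 and 4.24 CPM in WT ABA libraries. Its ABA libraries overlapped between genotypes, and in both ICL and AT1G68250 replicate 1 of cdk8 ABA stood far above the other 2.

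The summed level of 7 seed storage, oleosin and PER1 genes moved with these values. It was 68.3, 4.87 and 39.2 CPM in cdk8 ABA, 0.108, 3.62 and 0.466 CPM in WT ABA, 3.44, 12.9 and 4.87 CPM in cdk8 mock, and 1.61, 0.802 and 13.4 CPM in WT mock libraries. All 7 were detected in every cdk8 ABA library, and 5, 2 and 2 of them were at 0 in the WT ABA libraries. In the mock libraries 1, 0 and 1 were at 0 in cdk8 and 0, 1 and 1 in WT. Detection also depends on depth, which was at least 24292745 assigned fragments in cdk8 ABA and at most 19326565 in WT ABA libraries. The part of this list in the high-end values was not tested, and 3 of its 7 genes (CRA1, CRU3, OLEO2) are themselves members. In cdk8 ABA, replicate 2 was under 0.5 times each of the other replicates in 8 of 20 high-end genes, 0 of 16 low-start genes and 1 of 11 mixed genes. The 8 were CRA1, CRU3, AT3G54940, OLEO2, AT2G28490, AT1G47980, AT5G22470 and LEA. With cdk8 ABA replicate 2 as the sole library of its group, all 8 left the selection and 7 of the 20 high-end genes stayed in it, against 12 of 16 low-start and 9 of 11 mixed genes. Without cdk8 ABA replicate 1, 9 of the 20 stayed. The headers give cdk8 ABA replicate 3 a library number apart from the consecutive numbers of the other libraries, and replicate 1, with the highest seed sums, is among the consecutive ones.

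**Figure D4:**
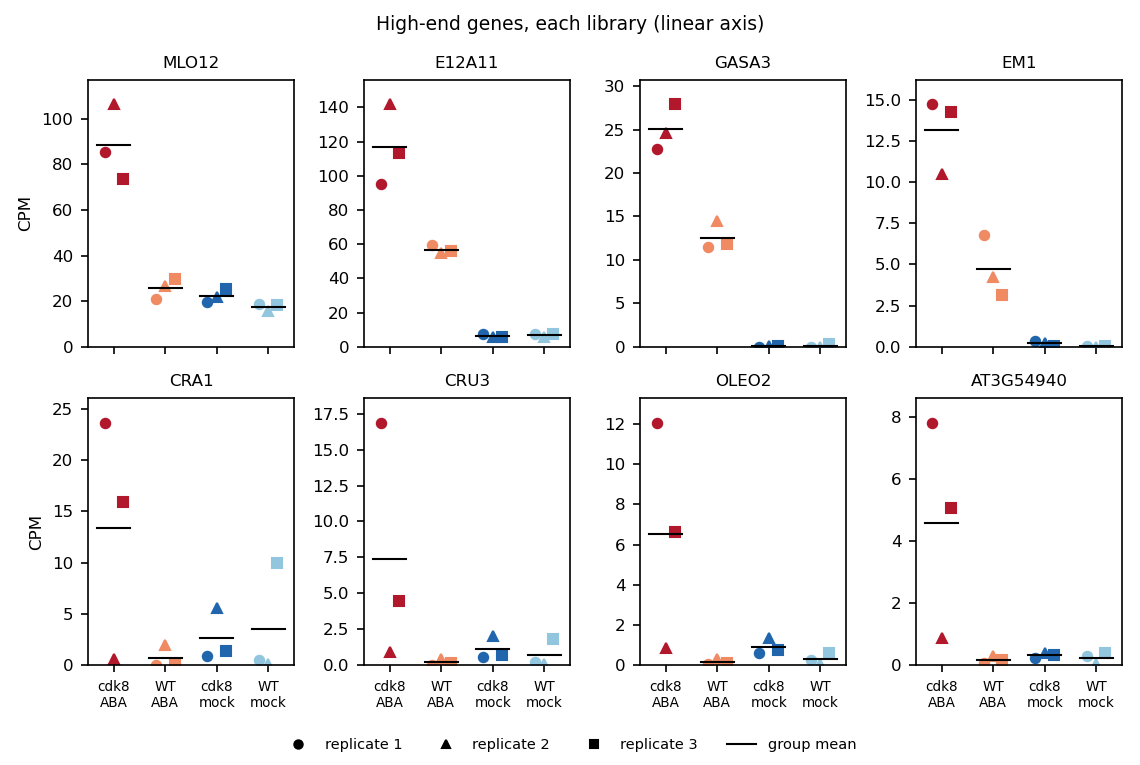
CPM in each library for 8 high-end genes, on linear axes from 0; symbols mark the replicates and horizontal bars the group means (n = 3). MLO12, E12A11, GASA3 and EM1 (top) have 3 high cdk8 ABA libraries, while CRA1, CRU3, OLEO2 and AT3G54940 (bottom) have replicate 2 under 1 CPM and replicate 1 between 7.81 and 23.7 CPM.

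By the class limits, all 11 mixed genes started lower and ended higher in cdk8, so this is a definition and not a result. Start differences ran from -1.04 to -0.41 and end differences from 0.39 to 0.87. All cdk8 mock libraries were below all WT mock libraries in 8 of 11 (19.1% of tested genes), and all cdk8 ABA libraries were above all WT ABA libraries in 7 of 11 (26.6% of tested genes). The edgeR test called 6 lower in cdk8 after mock (8% of tested genes) and 5 higher in cdk8 after ABA (10.6%), and nothing is read from these counts, since the rule used both contrasts.

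CBF2 (AT4G25470, chr4:13015277-13016220, minus strand), a DREB factor of cold acclimation, had 19.2, 15.7 and 21.8 CPM in cdk8 ABA and 13.7, 10.2 and 10.2 CPM in WT ABA libraries. After mock it had 1.9, 1.32 and 1.45 CPM in cdk8 and 3.85, 3.45 and 5.01 CPM in WT libraries. The genotypes crossed over without overlap in either treatment. CBF2 has near-identical tandem copies, so its counts depend on how shared fragments were assigned. EDF3 (AT3G25730), a RAV-type factor, had 14.8, 14.5 and 11.3 CPM in cdk8 ABA and 9.86, 7.58 and 10.6 CPM in WT ABA libraries, against 2.43, 1.87 and 2.17 CPM in cdk8 mock and 4.53, 5.9 and 4.43 CPM in WT mock libraries. It crossed over in the same way.

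GolS2 (AT1G56600), galactinol synthase of the raffinose pathway and a drought marker, had 83.7, 97.5 and 102 CPM in cdk8 ABA and 59.2, 57.8 and 36.6 CPM in WT ABA libraries. After mock it had 8.67, 11.7 and 6.7 CPM in cdk8 and 19, 6.94 and 19 CPM in WT libraries, which overlapped because WT mock replicate 2 was low. AT5G38940, a cupin, had 28.1, 40.2 and 21.9 CPM in cdk8 ABA and 16, 15.7 and 23.2 CPM in WT ABA libraries, which overlapped, against 4.13, 4.55 and 5.11 CPM in cdk8 mock and 11.5, 11.5 and 8.43 CPM in WT mock libraries. AT4G00670, a remorin, had 26.6, 25 and 25.9 CPM in cdk8 ABA and 14.7, 14.1 and 19.2 CPM in WT ABA libraries. Its mock libraries, 7.67, 6.8 and 7.47 CPM in cdk8 and 10.9, 10.4 and 13.1 CPM in WT, also did not overlap, and it shares sequence with AT4G00660 on the other strand.

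The other 6 mixed genes were AT1G24735 (a methyltransferase that overlaps AT1G24764 on the other strand), AT5G36925 (uncharacterized), AT5G59490 (a haloacid dehalogenase-like hydrolase), AT4G37220 (a WCOR413 cold-acclimation protein), AT4G30830 (a myosin-like protein) and AT1G50060 (a CAP secretory protein). Their differences of responses ran from 1.02 in AT1G50060 to 1.31 in AT1G24735. AT1G50060 rested on 1 library, with 2.92, 11 and 4.98 CPM in cdk8 ABA and 3.09, 4.13 and 4.19 CPM in WT ABA libraries. AT4G37220 overlapped too, with 27.6, 11.4 and 33.9 CPM in cdk8 ABA and 17.7, 22.3 and 7.92 CPM in WT ABA libraries.

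**Figure D5:**
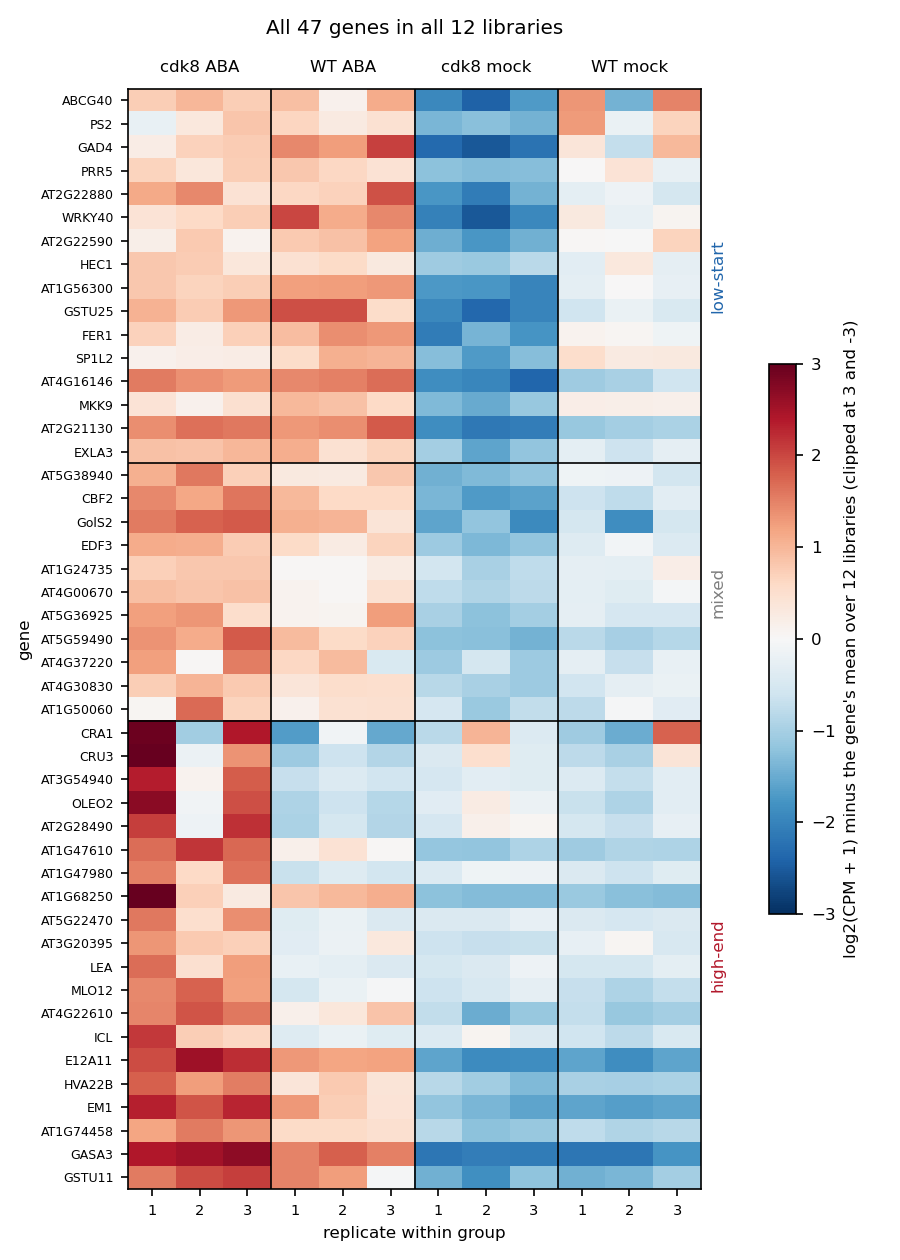
Each row is 1 of the 47 genes and each column 1 of the 12 libraries, in the order cdk8 ABA, WT ABA, cdk8 mock and WT mock; colour is log2(CPM + 1) minus the gene's mean over the 12 libraries, clipped at 3 and -3. Low-start rows are darkest blue in cdk8 mock, mixed rows are blue in cdk8 mock and mostly reddest in cdk8 ABA, and the upper high-end rows are reddest in cdk8 ABA replicates 1 and 3 (CRA1 at 23.7 and 15.9 CPM, against 0.558 CPM in replicate 2).

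Over all 47 genes the difference of responses ran from 1.00 to 3.42 with a median of 1.27, against a median of 0.10 over the 19616 genes with a mean of at least 1 CPM. The edgeR test of the difference of responses called 27 of 47 higher, with 14 of 16 low-start, 6 of 20 high-end and 7 of 11 mixed genes, against 2.37% of tested genes. The high-end genes called were AT1G47610, AT3G20395, MLO12, AT4G22610, E12A11 and AT1G74458, and none of the storage genes was called. ABA against mock was called higher in 46 of 47 in cdk8 (30.6% of tested genes), all but CRA1, and in 33 of 47 in WT (31.9% of tested genes). The WT count was 14 of 16 low-start, 10 of 20 high-end and 9 of 11 mixed genes. After ABA, 23 of 47 were called higher in cdk8 (10.6% of tested genes) and 7 of 47 were called lower in cdk8 (13% of tested genes). Those 7 were all low-start. The rule used each of these contrasts, so the counts carry no weight as evidence.

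Membership depended on the scaling. edgeR's TMM factors, which correct column totals, were 1.03 to 1.04 in cdk8 ABA and 0.936 to 0.979 in WT ABA libraries. With TMM-scaled CPM the median difference of responses over the 19616 genes was 0.01 and 32 of the 47 genes stayed, among them 9 low-start, 16 high-end and 7 mixed genes, and no other gene joined. With a group median in place of the mean 36 stayed and 20 others joined. Leaving out each library in turn, 15 of 47 stayed every time, 6 low-start, 4 high-end and 5 mixed. Over these 12 omissions and 6 other settings (TMM scaling, pseudocounts of 0.5 and 5, medians, means of log values and only genes that passed the count filter) 8 stayed, which were ABCG40, PRR5, AT1G47610, MLO12, AT4G22610, AT5G38940, CBF2 and GolS2. All 47 passed the count filter, so that setting could remove no member.

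Just inside the difference limit at 5 CPM or more were EXLA3 (1.0) and AT2G21130 (1.0). Just outside it were EXLB1 (0.98), an expansin-like gene, and ABF1 (0.98), a bZIP factor of ABA signalling. Just inside the cdk8 response limit were AT1G24735 (1.53) and ICL (1.56), and just outside it were PER1 (1.48), a seed peroxiredoxin, and WRKY22 (1.43).

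Of 34 lists of pathway and marker genes 7 held a member, and 10 of the 324 listed genes were members. The seed list held 4 of its 8 genes (CRA1, CRU3, OLEO2 and GASA3). All 8 had a larger response in cdk8, with a median difference of responses of 1.53. But edgeR called 0 of the 6 tested genes of the list higher for that difference, against 2.37% of all tested genes. Of these 6, 3 had an unadjusted p under 0.05 and DESeq2 called 0. For cdk8 against WT after ABA edgeR called 6 of the 6 higher (10.6% of tested genes) and DESeq2 called 5. The 4 members among them were chosen on these values, so nothing is read from this count. Of the others on the seed list, PER1 had 7.59, 1.19 and 8.07 CPM in cdk8 ABA and 0, 0.679 and 0.0517 CPM in WT ABA libraries, with replicate 2 the lowest in cdk8 ABA as in CRU3 and OLEO2. SESA1, SESA4 and OLEO1 were at or under 4.30 CPM in every library.

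Over all 21151 tested genes edgeR called 501 higher (2.37%) and 602 lower for the difference of responses, and the list counts below stand beside these. Of 20 dehydration and ABA effector genes EM1 alone was a member. Their median difference of responses was -0.14 on the log2(mean CPM + 1) scale. In the edgeR fit EM1 itself was at -1.08 (SE 1.13). That fit called 0 of the 20 higher (1 at an unadjusted p under 0.05, 0 by DESeq2) and 2 lower, RD22 and HB7. None of the 9 clade A PP2C genes, which desensitize the ABA signal, was a member, and their median was -0.29, with 0 called higher (0 at an unadjusted p under 0.05, 0 by DESeq2) and 1 lower. Of 16 drought and cold factors CBF2 alone was a member, with a median of 0.24 and 3 called higher (CBF1, CBF2 and ZAT10). Of 8 proline and raffinose genes GolS2 alone was a member, with 1 called higher (RS5) and 2 lower (P5CS2 and PRODH2). Of 13 clock genes PRR5 alone was a member, with 2 called higher (PRR5 and PRR9) and 1 lower (RVE1).

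FER1 stood in a list of 4 ferritin genes, all with a larger response in cdk8 and a median of 0.83. Of the 4, 2 were called higher, against 2.37% of tested genes. FER4 had a difference of responses of 1.18 with 14.8, 20.7 and 20.4 CPM in cdk8 mock and 32.5, 40.8 and 33 CPM in WT mock libraries, but its cdk8 response of 1.36 was under the limit. Phosphate starvation genes had a median of 0.97 with 7 of 7 above 0, against a median of 0.10 over the 19616 genes with a mean of at least 1 CPM, and no member. edgeR called 1 higher for the difference of responses (2.37% of tested genes), DESeq2 called 3, and 5 had an unadjusted p under 0.05 by edgeR. PS2, known to answer the same starvation, was not on the list. MGD3, a galactolipid synthase of that list, had a difference of 2.05, with responses of -1.64 in cdk8 and -3.69 in WT.

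No 2 members were neighbours on a chromosome; the closest pair, AT2G22590 and AT2G22880, had 33 counted genes between them. Members were spread over chromosomes 1 (16), 2 (7), 3 (6), 4 (8) and 5 (10). Their median summed exon length was 1089 bases, against 1552 bases over the 19616 genes with a mean of at least 1 CPM.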

How the data were processed

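RNA-seq of 12 whole-seedling libraries (4 groups of 3) was used as the gene table of raw fragment counts that the authors deposited. Per the file headers, featureCounts 1.4.6 counted paired fragments over exons of an Ensembl TAIR10 annotation by gene, with no strand option and no option for fragments that map to several places, so overlapping genes on opposite strands and near-identical copies are uncertain. Per the submitters' processing notes, TopHat2 and FastQC were used and the build was TAIR10. No column was left without a sample.

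CPM by column total, group means and a pseudocount of 1 gave the selection. Members, classes and gene lists were chosen with earlier results of these data known. edgeR 4.0.16 (R 4.3.3) fitted the counts with TMM scaling, filterByExpr (21151 genes kept, 12451 removed), 4 group means and the quasi-likelihood test, with Benjamini-Hochberg adjustment over all kept genes and a limit of 0.05. The common biological coefficient of variation was 0.126. The fit was tested on simulated data. DESeq2 1.42.0 and other scalings, filters, pseudocounts and left-out libraries were alternatives. All 47 members are named. The rule for those given in full took, per class, the 8 with the largest difference of responses that had a symbol and 5 CPM in cdk8 ABA, then list members, genes at the limits and transcription factors. Members outside this rule were described after their values were seen, as were the uneven replicates.

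Totals of 17675785 to 27415053 fragments put 3 counts at 0.109 to 0.170 CPM, and intervals or floors cover counting error only. RefSeq names matched 32835 genes. RefSeq TAIR10.1 sequence was read after checking that 98.5% of 95453 inner exons of the counted annotation had both ends at RefSeq exon ends. RefSeq gene starts define the windows.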

Additional observations from a re-analysis of the deposited data

Results flagged for a closer look

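The ABA response differed between cdk8 and WT by edgeR's test of the difference of responses in 27 of the 47 genes. The genes were selected for a difference in this direction, so the values, in log2 from the fit, describe them and add no support. No group held more than 3 libraries, so no single library was tested as an outlier. Among low-start genes the difference was 3.22 in ABCG40, 1.97 in PS2, 2.34 in GAD4, 1.25 in PRR5, 1.28 in WRKY40, 2.08 in AT2G22590 and 1.48 in HEC1. It was 1.08 in AT1G56300, 1.00 in FER1, 1.33 in SP1L2, 1.09 in AT4G16146, 0.96 in MKK9, 1.03 in AT2G21130 and 1.42 in EXLA3. Among high-end genes it was 2.05 in AT1G47610, 1.59 in AT3G20395, 1.32 in MLO12, 1.29 in AT4G22610, 1.05 in E12A11 and 0.98 in AT1G74458. Among mixed genes it was 1.8 in AT5G38940, 2.02 in CBF2, 1.63 in EDF3, 1.58 in AT1G24735, 1.23 in AT4G00670, 1.16 in AT5G59490 and 1.52 in AT4G30830. Of the 27, 18 were also called under each of the 18 alternatives run, 7 of them low-start, 5 high-end and 6 mixed.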

How the results depend on the processing

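The size of the selection follows its settings. It held 32 genes with TMM-scaled CPM (10 low-start, 15 high-end and 7 mixed, with classes formed anew under each setting), 73 with a pseudocount of 0.5 (24, 37 and 12) and 10 with a pseudocount of 5 (3, 4 and 3). Leaving out 1 library gave 40 to 59 genes, with 12 to 22 low-start, 13 to 31 high-end and 7 to 13 mixed. The high-end count was 13 without cdk8 ABA replicate 1 and 31 without replicate 2. Without cdk8 ABA replicate 2 and WT ABA replicate 3 together, chosen after seeing the data, it held 62 genes, 34 of them high-end. With cdk8 ABA replicate 2 as the only library of its group, also chosen after seeing the data, it held 76 (30 low-start, 26 high-end, 20 mixed). A class limit of 3/4 gave 16, 19 and 12. Counts of called members stayed within 1.5 times under each scaling, filter, tool and left-out library run: for the difference of responses they were 19 to 32 with 1 library left out and 31 by DESeq2. In the same-number comparison, the labels give replicates no pairing. Deviations of same-numbered libraries correlated at -0.295 to 0.0873, so no strong shared effect of the replicate number was seen. Whether the numbers pair the samples cannot be told from 3 libraries per group. A replicate block gave 25 members called for the difference of responses, 22 lower in cdk8 after mock, 21 higher in cdk8 after ABA, and 45 and 33 higher with ABA in cdk8 and WT. Over single genes, 846 alternative values of the difference of responses included 59 that lost the call, 23 that gained it and 2 that changed sign, neither called by either fit. Both were without WT mock replicate 3. The difference was then -1.88 in GASA3 (2.28 with all libraries, up to 2.87 with another left out) and -0.56 in LEA (2.68 with all libraries, up to 4.60 with another left out). The WT mock libraries had 0, 0 and 0.32 CPM of GASA3 and 0, 0 and 0.16 CPM of LEA. Without replicate 3 both genes therefore had no WT mock count left. The cause of the changed sign was not tested. A total of 3 or fewer counts over the 3 libraries of a mock group limits EM1, GASA3, LEA, AT5G22470 and AT1G68250. Single mock libraries of other members, among them the storage genes CRA1, CRU3 and OLEO2, also held 3 or fewer counts.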

Other observations

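Mitotic cell cycle genes held no member, since none had a cdk8 response of 1.5, but 6 of 8 listed were called higher for the difference of responses by edgeR (CYCA1;1, CYCB1;1, CYCB1;2, CDKB1;1, CDKB2;1 and KN), against 2.37% of tested genes. CYCB1;2, a mitotic cyclin, had 14.9, 18.4 and 13.1 CPM in cdk8 ABA and 6.29, 6.68 and 9.37 CPM in WT ABA libraries, against 15.9, 18 and 20.4 CPM in cdk8 mock and 23, 23.4 and 22.1 CPM in WT mock libraries. Its responses were -0.21 in cdk8 and -1.5 in WT, so the larger value in cdk8 was a smaller loss with ABA and not a gain. The replication genes MCM2 and MCM5 on the same list had differences of responses of -0.08 and -0.18.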
